A study of Mus musculus with 28 samples.

Results

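Broad constant regions of 5-methylcytosine (5mC) were merged stretches of the mouse genome, at least 1200 bp wide, that held a peak of every 5mC library. The width is that of the merged region, and the peaks of a single library can cover only part of it. They were found by merging the 5mC peaks of 5 libraries on the 19 autosomes wherever peaks overlapped by at least 1 bp, and by keeping merged regions of 1200 bp or more that held a peak of all 5 libraries. This left 1146 of 215714 merged regions. Another 68886 regions also held a peak of all 5 libraries but were narrower than 1200 bp, and these narrower constant regions are the comparison used throughout. Width alone nearly set the membership, since 1151 regions reached 1200 bp and only 5 of them lacked a peak in some library.

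The series asks how combined loss of Tet1 and Tet2 affects blood malignancy in mice, and 11 of its 28 samples, all peak lists, are used here. All 11 were made from LK cells (the labels' name) of the bone marrow of C57BL/6 mice 6 to 10 weeks old. The genotypes were wild type (WT), Tet2 knockout (Tet2KO, Tet2-/-) and the Tet1 and Tet2 double knockout (DKO), so that loss of Tet2 was common to both mutant groups and no Tet1 single mutant is included. 5hmC was profiled in 2 libraries of each genotype, and 5mC in 2 WT, 1 Tet2KO and 2 DKO libraries; the other 17 samples, RNA-seq libraries, were not analysed here. Whether the libraries of a group were made from separate animals is not said in the labels, and the p-values therefore reflect the spread between libraries only, which could be technical. The labelled cell type and genotypes cannot be checked in peak lists.

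DNA methyltransferases write 5mC, mainly where a cytosine precedes a guanine, and most such sites in mammalian genomes carry it outside active promoters and enhancers. TET enzymes, among them the products of Tet1 and Tet2, oxidise 5mC to 5-hydroxymethylcytosine (5hmC), which in blood progenitors is found mainly in gene bodies and at enhancers. MeDIP-seq enriches methylated fragments with an antibody and favours stretches dense in methylated sites, whereas hMe-Seal attaches a chemical label to 5hmC and pulls the labelled fragments down. Both give enriched intervals and not the share of modified cytosines, so a base outside a peak can still carry the mark.

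The broad regions were a small and graded class. Their median width was 1411 bp, with quartiles of 1291 and 1654.5 bp, against a median of 461 bp for the narrower constant regions. Most were close to the threshold: 691 were 1200 to 1499 bp wide, 336 were 1500 to 1999 bp and 119 were 2000 bp or more. Together they covered 1.78 Mb, which is 1.64% of the constant regions and 4.89% of their bases.

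Few broad regions were a single wide peak in every library. In 147 of the 1146, each of the 5 libraries had an individual peak of at least 1200 bp. In 480 no library had such a peak, and the width arose from joining shorter neighbouring or offset peaks. The individual libraries had between 276 and 424 peaks of 1200 bp or more, 0.191% to 0.356% of their peaks. Exactly 1 peak in each of the 5 libraries was found at 210 broad regions.

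Coverage of these regions by the 5mC peaks themselves was 85.2% and 81.9% in the WT libraries, 83.8% in the Tet2KO library and 81.7% and 85.5% in the DKO libraries. The WT and DKO values interleaved, with means of 83.5% ± 2.37 (SD, n = 2) and 83.6% ± 2.69 (SD, n = 2). The DKO mean lay 0.0915 percentage points above the WT mean. The regions were chosen for a peak in every one of these lists, so these coverages and the limma counts that follow describe the selected set. They are no test of similarity, and 0 calls do not show that 5mC was unchanged. With limma, 0 of 150183 merged regions were called for DKO against WT (0% of regions tested) and 0 for the single Tet2KO library against WT (0%), at a Benjamini-Hochberg adjusted p under 0.05. The single Tet2KO library has no spread of its own and was assumed to vary like the WT and DKO libraries. At an unadjusted limma p under 0.05, 1 broad region was higher and 4 were lower in DKO, beside 2.09% and 2.12% of all regions tested. In Tet2KO 9 were higher and 5 lower, beside 1.39% and 1.47% of all.

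The broad regions given here are among the 5 of smallest limma p for DKO against WT in 5mC. They were picked on these values, so their WT and DKO values lie well apart by choice. On chromosome 4, chr4:62793225-62794757 (mm9, as all positions here) was 91.3% and 99.9% covered by 5mC peaks in WT, 85.6% in Tet2KO and 67.5% and 68.2% in DKO. On chromosome 7, chr7:30577525-30578846 moved the other way, with 84.9% and 80.8% in WT, 91.0% in Tet2KO and 97.0% and 99.9% in DKO. The replicates of these regions did not overlap between WT and DKO, and neither passed the test over all regions (limma, adjusted p = 0.883 for both). At chr10:79522457-79524283 5mC coverage was 97.0% and 88.2% in WT, 90.3% in Tet2KO and 66.9% and 54.7% in DKO (limma, adjusted p = 0.883).

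The score that the authors' peak caller gave each peak placed the broad regions near the top of every list. The score is their own value, of the form -10 times the log10 of a p-value, and is read here within a list only. The median of the highest score in a region was 791 and 865 in the WT libraries, 883 in Tet2KO, and 923 and 746 in DKO. For the narrower constant regions it was 147 and 167 in WT, 169 in Tet2KO, and 176 and 137 in DKO. These values describe regions that were selected on the same peaks, and a wider region also has more peaks from which the highest is taken, so no test was made.

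As ranks within a library, the best peak of a broad region had a median percentile between 97.7 and 98.2 over the 5 libraries, against 68.8 to 74.4 in narrower constant regions. Between 33.4% and 38.5% of the broad regions, by library, held a peak from the top 1% of scores. Averaged over the libraries, 385 broad regions lay above the 99th percentile and 768 above the 95th percentile. Width did not guarantee a high score: 216 broad regions averaged below the 90th percentile, and the lowest averaged 31.1. Many peaks shared a score of 3100, and 75 broad regions reached at least this value in all 5 libraries, against 29 narrower ones.

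**Figure D1:**
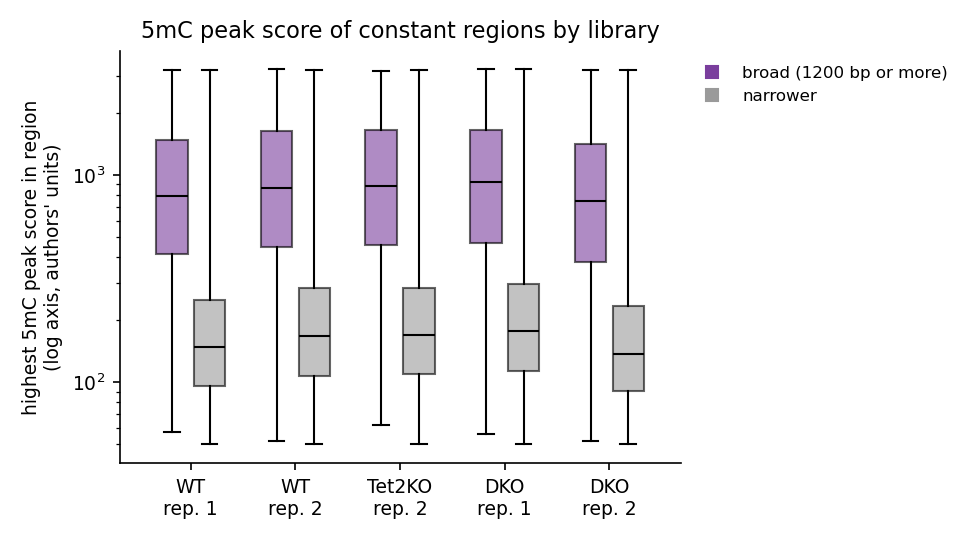
Highest 5mC peak score in each constant region, by 5mC library, on a log axis in the authors' units. Boxes span the quartiles with the median as a line and whiskers reach the lowest and highest region; the broad regions have medians of 746 to 923 and the narrower ones of 137 to 176, with whiskers that overlap over nearly the whole range.

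The widest regions illustrate this range. The widest of all, chr15:76002533-76012837, spanned 10305 bp and was built from 4 to 6 peaks per library. Its best peak scored 3125 in WT replicate 1 and 3100 in the 4 other libraries. It was followed by chr17:39979831-39985841 with 6011 bp, which had 2 peaks in every library and a score of 3100 in all 5. The third, chr18:74376705-74381090, spanned 4386 bp and scored 2063 and 2024 in WT, 1424 in Tet2KO, and 1289 and 945 in DKO. The other members of the 10 widest were chr8:111471805-111475810 (4006 bp), chr10:79438247-79441917 (3671 bp), chr4:132618259-132621760 (3502 bp), chr5:111847513-111850940 (3428 bp), chr7:4980400-4983819 (3420 bp), chr9:108015590-108018852 (3263 bp) and chr15:78501941-78505137 (3197 bp). Of all broad regions, chr7:52331610-52333279 had the highest mean percentile of score, with 3226 in DKO replicate 2 and 3100 in the other 4 libraries.

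The width threshold cut through a continuum. Just inside it, at 1200 bp, lay chr6:125098245-125099444 with scores of 144 to 296, chr8:119905901-119907100 with 470 to 987 and chr9:44313522-44314721 with 166 to 369. Just outside lay chr13:100202436-100203634 at 1199 bp with scores of 1233 to 1849, and at 1198 bp chr1:120733634-120734831 with 2360 to 3156 and chr10:79002877-79004074 with 84.8 to 192. Low scores thus occurred on both sides of the threshold.

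Broad regions were unevenly spread over the chromosomes. Over all autosomes there were 16.4 broad regions per 1000 constant regions. Chromosome 7 had the most, 121, which was 27.8 per 1000. It was followed by chromosome 17 with 23.7 per 1000, chromosome 15 with 23.0, chromosome 8 with 22.0 and chromosome 10 with 21.5. The lowest were chromosome 16 with 6.26 per 1000 and chromosome 13 with 7.82.

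They also lay close to each other. Another broad region lay within 10 kb of 231 of the 1146, 20.2% (exact 95% binomial interval 17.9% to 22.6%, counting error only), whereas 3133 of the 68886 narrower constant regions, 4.55%, had a broad region that near. Within 1 kb the shares were 6.28% and 0.811%, within 100 kb 49.7% and 21.1%, and within 1 Mb 83.9% and 62.7%. The median distance to the nearest broad region was 103 kb from a broad region and 533 kb from a narrower one. Since long stretches broken into adjoining peaks are by construction near each other, these are descriptions of the chosen set. The 5mC lists were also denser around broad regions: in the first 1 kb beyond the edges 13.2% of bases lay under 5mC peaks (median over the 5 libraries), against 5.39% around narrower regions, and between 5 and 10 kb 9.98% against 5.20%.

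**Figure D2:**
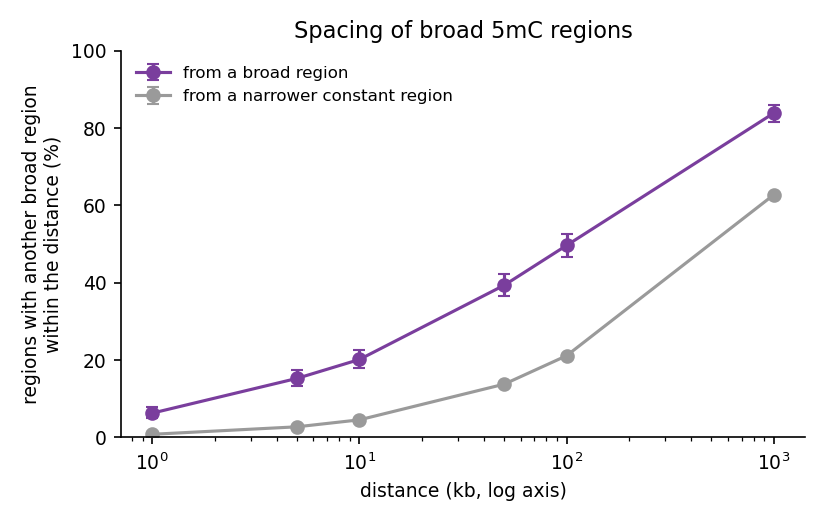
Share of regions with another broad 5mC region within a given distance, from 1 to 1000 kb on a log axis, for broad and for narrower constant regions. Points are shares and bars are exact 95% binomial intervals; at 10 kb the shares are 20.2% and 4.55%, and the broad regions lie higher at each of the 6 distances drawn.

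When broad regions at most 10 kb apart were joined, 915 stood alone, and the rest formed 73 pairs, 23 groups of 3 and 4 groups of 4. The groups of 4 were chr7:51793840-51808005, chr4:141021232-141035325, chr10:126982331-126994803 and chr2:25292338-25303234, each spanning 10.9 to 14.2 kb. On a larger scale, 61 of the 2340 megabase bins with a constant region had 5 or more broad regions and together held 406 of them. The 2 densest bins adjoined each other on chromosome 10: the bin from 79000001 to 80000000 had 18 broad regions among 175 constant ones, and that from 80000001 to 81000000 had 20 among 163. The next were on chromosome 10 from 126000001 to 127000000 with 12, chromosome 15 from 76000001 to 77000000 with 11 and chromosome 11 from 69000001 to 70000000 with 11. The widest region lay in that chromosome 15 bin.

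The 5hmC libraries were not used to choose the regions, and they covered broad regions more fully than narrower ones. In WT, 54.4% and 53.6% of the bases of broad regions lay under 5hmC peaks, against 29.0% and 27.8% in narrower constant regions. In Tet2KO the values were 39.9% and 39.3% against 21.6% and 20.9%, and in DKO 45.1% and 42.2% against 23.4% and 22.8%. The broad regions lay higher in 6 of 6 libraries, by 21.5 ± 3.43 percentage points (SD, n = 6), with ratios of 1.84 to 1.93. The WT libraries had differences of 25.5 and 25.8 points. For Tet2KO both were 18.3 points, and the DKO pair had 21.7 and 19.4. The SD thus includes differences between genotypes and is not replicate spread alone. An exact two-sided sign-flip permutation test over the libraries gave p = 0.0312, the smallest it can give, and 0.0938 after Benjamini-Hochberg adjustment over the 3 planned coverage tests. The test pools the genotypes as if they were 1 condition. The libraries all share 1 set of regions, so the test speaks of libraries and not of other regions. The members were chosen with earlier results of these data known.

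**Figure D3:**
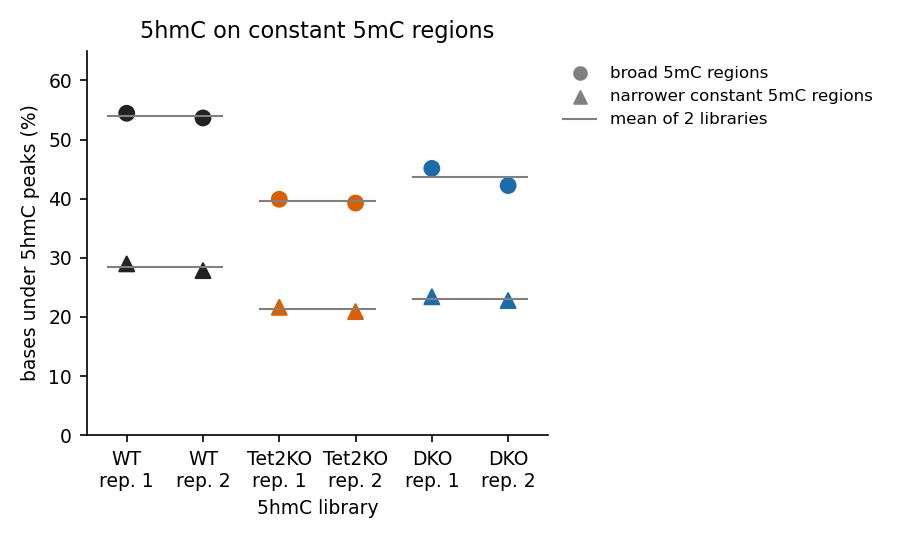
Percent of bases under 5hmC peaks in each of the 6 5hmC libraries, for broad (circles) and narrower (triangles) constant 5mC regions, with grey lines at the mean of the 2 libraries of a genotype. Every circle lies above every triangle; WT circles lie at 54.4% and 53.6%, and the lowest circles are the Tet2KO ones at 39.9% and 39.3%.

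Counted by region, 806 and 804 broad regions touched a 5hmC peak in the WT libraries (70.3% and 70.2%), 689 and 702 in Tet2KO, and 722 and 718 in DKO. Among narrower regions the share was 30.1% and 29.3% in WT, but a wider region is more easily touched, and so bases are the main measure. The share of regions wholly under 5hmC peaks did not follow this order throughout: it was 17.4% of broad and 16.6% of narrower regions for WT, 8.55% and 10.2% for Tet2KO, and 11.4% and 12.1% for DKO. The best 5hmC peak on a broad region also ranked higher in its own list. A wider region can touch more 5hmC peaks, at most 5 against 3 for narrower regions in WT. The highest is taken from these, so the ranks are descriptions. On broad regions the highest peak had a median percentile of 89.2 and 88.3 for WT, 81.3 and 82.0 for Tet2KO, and 82.6 and 81.7 for DKO. On narrower regions the medians lay between 65.3 and 68.6 in all libraries.

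The broad regions divided into those with and those without 5hmC. A peak was present in all 6 libraries at 565 of them (49.3%), in 1 to 5 libraries at 339, and in none at 242 (21.1%). Of the narrower constant regions, 15.5% had a peak in all 6 and 60.8% in none. At 43 broad regions every base lay under 5hmC peaks in all 6 libraries. Among these were chr10:79323828-79325777, chr7:52965992-52967909, chr10:79382889-79384796, chr13:38022257-38023907 and chr10:80606514-80608158, the widest being 1950 bp. Of these 5, 3 lay in the 2 dense bins of chromosome 10 described above.

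High 5mC score and 5hmC were separable in single regions. The second widest, chr17:39979831-39985841, had a 5mC score of 3100 in every list and no 5hmC peak in any library. The same held for chr12:109153350-109155970 (2621 bp, 3100 in all 5 lists), and chr1:188790682-188792886 with scores of 3100 to 3191 also had none. The region chr8:111471805-111475810 had at most 2.996% of its bases under 5hmC peaks. Other wide regions with no 5hmC peak were chr2:174123848-174126652 (2805 bp), chr6:4696650-4699363 (2714 bp) and chr18:38356772-38359277 (2506 bp). In contrast, chr10:80606514-80608158 scored 3100 in all 5 5mC lists and was wholly covered in every 5hmC library.

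Regions without 5hmC were more isolated. Their median distance to the nearest broad region was 280 kb, against 72.3 kb for regions with 5hmC in all 6 libraries. Their flanks were also poor in 5hmC: within 10 kb on either side, 6.65% to 8.85% of bases lay under 5hmC peaks by library, against 26.7% to 33.1% around regions with 5hmC in all libraries. The groups were formed by 5hmC peaks, which can run past the edges, so the grouping itself sets part of this contrast. Mean coverage of these flanks by 5mC peaks was lower too, 8.14% against 12.3%. Median widths were close, at 1368.5 and 1434 bp, and median 5mC percentiles were 95.7 and 98.6. The same order appeared by spacing. Broad regions with another within 10 kb were 66.3% covered by 5hmC in WT, 48.5% in Tet2KO and 53.3% in DKO, and those with none within 1 Mb 39.1%, 29.2% and 33.2%. No 5hmC peak was found at 12.1% of the former and 36.2% of the latter.

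Coverage by 5hmC rose with the width of the 5mC region and then levelled off at the broad regions. In WT it was 9.57% for constant regions under 300 bp, 20.7% for 300 to 449 bp, 28.8% for 450 to 599 bp, 35.1% for 600 to 899 bp and 44.1% for 900 to 1199 bp. Within the broad regions it was 53.8% at 1200 to 1499 bp, 53.9% at 1500 to 1999 bp and 55.1% at 2000 bp or more. The WT means of these 3 classes lay within 1.34 points of each other, while the WT replicates were 2.09, 0.0202 and 1.6 points apart. Tet2KO gave 39.5%, 39.5% and 40.0% and DKO 43.2%, 44.3% and 43.7% in the same 3 classes. The share of broad regions with no 5hmC fell from 22.4% to 15.1% over these classes.

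**Figure D4:**
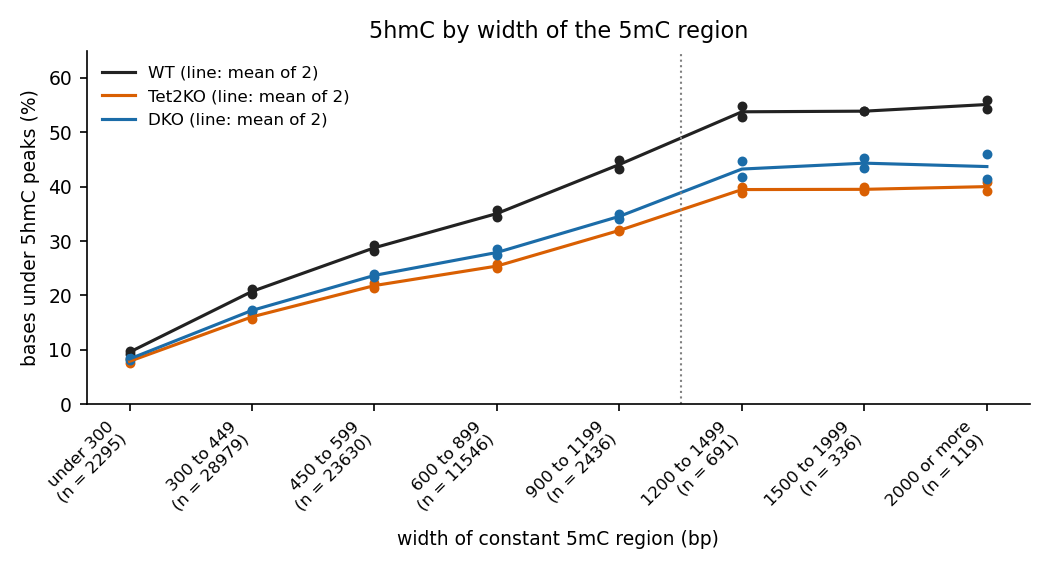
Percent of bases under 5hmC peaks against the width class of constant 5mC regions. Points are libraries, lines are means of the 2 libraries of a genotype and the dotted line marks the 1200 bp threshold; WT rises from 9.57% to 44.1% below the threshold and stays between 53.8% and 55.1% above it.

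The 5mC score varied together with width, so broad and narrower regions were also compared within classes of score. Among regions whose mean 5mC percentile was 99 or more, the 385 broad ones were 65.2% covered by 5hmC in WT and the 808 narrower ones 53.5%. Between the 95th and 98th percentile the values were 51.9% and 37.8%, and below the 90th 40.9% and 26.0%. The class below the 90th is wide, with 216 broad and 58095 narrower regions, so scores were not matched within it. The gap was smallest between the 98th and 99th percentile, with 51.5% and 43.8% for WT, 34.7% and 32.6% for Tet2KO, and 39.4% and 35.3% for DKO. Broad regions were higher in each of the 5 score classes in each genotype. Within the broad regions, the class of 99 or more was the most covered in all 3 genotypes, with 49.4% in Tet2KO and 54.4% in DKO.

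The 5hmC signal was highest inside the regions and extended beyond them. With each broad region cut into 10 equal parts, mean WT coverage was 46.1% and 46.5% in the outermost parts and 58.4% at its highest near the middle. It was 29.4% in the first 0.5 kb outside and 20.5% in the last 0.5 kb before 10 kb. Around narrower regions, WT coverage was 25.7% to 29.8% inside, 15.6% in the first 0.5 kb outside and 12.5% near 10 kb. The flanks of broad regions thus had more 5hmC than those of narrower ones at every distance drawn.

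**Figure D5:**
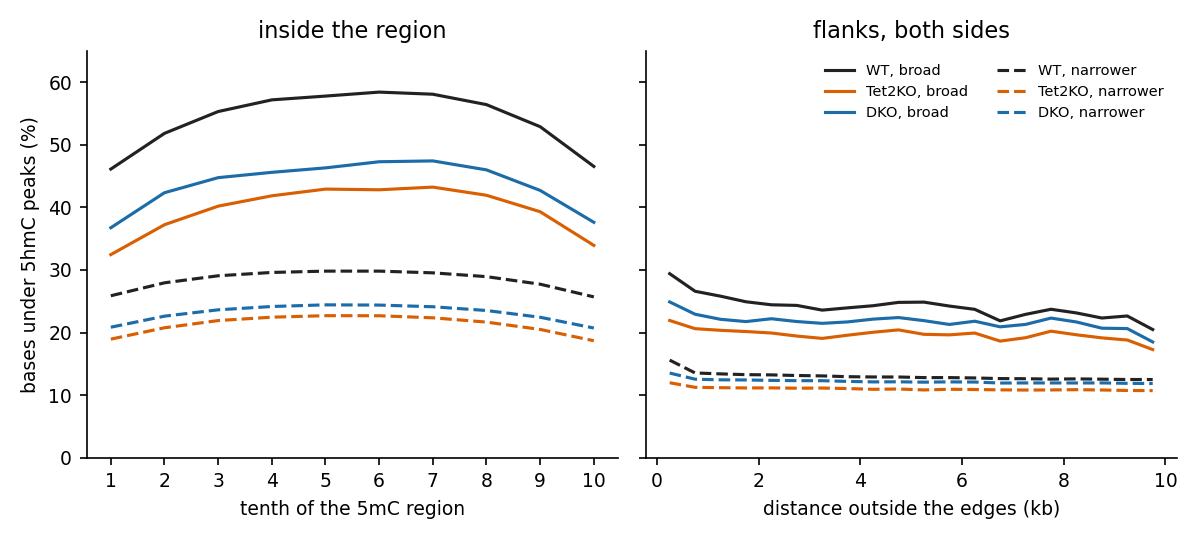
Percent of bases under 5hmC peaks inside constant 5mC regions, cut into 10 equal parts, and in 0.5 kb steps out to 10 kb on both sides. Lines are means of the 2 libraries of a genotype, solid for broad and dashed for narrower regions; for broad regions the WT line peaks at 58.4% inside and falls to 29.4% just outside.

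Broad regions had less 5hmC in the knockouts than in WT. Coverage was 54.04% ± 0.560 in WT, 39.6% ± 0.454 in Tet2KO and 43.7% ± 2.05 in DKO (SD, n = 2 each), and both libraries of each knockout lay below both WT libraries. The difference of the 4 knockout libraries from WT was -12.4 percentage points. An exact two-sided permutation test gave p = 0.0667, the smallest that 15 splits allow, and 0.1 after Benjamini-Hochberg adjustment over the 3 coverage tests, so it cannot pass 0.05. The slope over WT, Tet2KO and DKO was -5.19 points per step (exact permutation p = 0.133, adjusted 0.133). DKO lay 4.09 points above Tet2KO and not below it, with libraries that did not overlap (exact two-sided permutation test, p = 0.333, the smallest that 2 against 2 libraries can give).

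In relative terms the change of coverage was close to that of the narrower regions. Relative to WT, the coverage of broad regions changed by -26.8% in Tet2KO and by -19.2% in DKO. For narrower constant regions the values were -25.1% and -18.7%. The ratio of broad to narrower coverage differed between knockouts and WT by -0.02 on the log2 scale (exact two-sided permutation p = 0.533, adjusted 0.533 over 2 added tests). The total autosomal length of the 5hmC lists changed by -9.50% in Tet2KO and by -2.28% in DKO. Relative to that total length, broad regions were lower in the knockouts by a log2 difference of -0.29 (exact permutation p = 0.0667, adjusted 0.133). The median width of 5hmC peaks was 729 and 682 bp in WT, 634 and 599 bp in Tet2KO and 706 and 624 bp in DKO, and its part in the coverage was not tested.

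The lower values were spread over the genome and over both kinds of 5hmC-bearing region. On 19 of 19 chromosomes the mean coverage of broad regions was lower in Tet2KO than in WT, and likewise in DKO. WT coverage was highest on chromosome 10, 69.2%, and chromosome 19, 68.1%, and lowest on chromosome 12, 28.8%. Broad regions exceeded narrower ones in all 6 libraries on 17 chromosomes, and in 5 of 6 libraries on chromosomes 3 and 12. Regions with a 5hmC peak in all 6 libraries went from 83.3% in WT to 68.8% in Tet2KO and 74.2% in DKO. Those with a peak in 1 to 5 libraries, a class that itself depends on where peaks are missing, went from 40.3% to 15.6% and 20.2%. A peak in both WT libraries and in no knockout library was found at 23 broad regions (2.01%), against 1.10% of narrower ones, and the opposite pattern at 1 (0.0873%), against 0.102%.

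The clusters differed in how far the genotypes lay apart. The group of 4 on chromosome 7 was 73.8% and 65.5% covered by 5hmC for WT, 46.8% and 23.8% for Tet2KO and 41.3% and 39.6% for DKO. That on chromosome 4 had 84.7% and 94.9% for WT, 63.9% and 63.8% for Tet2KO and 74.4% and 77.1% for DKO. In both groups the knockout libraries all lay below both WT libraries. On chromosome 10 the libraries overlapped, with 65.2% and 33.6% in WT, 34.6% and 29.4% in Tet2KO and DKO values of 31.5% and 41.5%. On chromosome 2 DKO lay below Tet2KO on average, with 85.6% and 71.7% in WT, 62.0% and 51.5% in Tet2KO and DKO values of 52.2% and 39.9%, of which 1 overlapped Tet2KO. The group of 3 with the widest span, chr8:73292008-73313286, hardly moved, with 99.04% and 99.3% for WT, 95.7% and 91.9% for Tet2KO and 99.1% and 97.2% for DKO.

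Region by region, limma was fitted to the covered fraction (arcsine of its square root) of all 57190 merged 5mC regions with a 5hmC peak in at least 2 libraries. Of the broad regions, 829 entered this fit and 317 did not. A region can enter through peaks in 1 genotype only, so the shares that follow describe those 829 and not all broad regions. In Tet2KO against WT, 30 broad regions were called lower and 0 higher at a Benjamini-Hochberg adjusted p under 0.05 (3.62% of the 829 lower). Of all regions tested, 3.83% were called lower and 0.657% higher, so the share of broad regions was near the background. Of the narrower constant regions tested, 4.55% were called lower and 0.483% higher. At an unadjusted limma p under 0.05, 103 broad regions were lower and 4 higher, beside 8.19% and 1.22% of all regions tested. In DKO against WT, 16 were called lower (1.93%) and 2 higher (0.241%), smaller shares than the 2.91% and 0.873% of all regions. Of the narrower constant regions, 3.35% were called lower and 0.654% higher in DKO against WT. In DKO against Tet2KO, 7 broad regions were called higher (0.844%) and 1 lower (0.121%), beside 0.778% and 0.39% of all regions.

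These calls depended on single libraries. Without WT replicate 1, limma kept 0 of the 30 calls in Tet2KO against WT and 0 of the 18 in DKO against WT, and called 2 other regions higher in each comparison. Without WT replicate 2 it called 0 and 0. With the replicate number as a block it called 0 and 2, beside 1.69% and 1.81% of all regions tested. In each of these settings limma also called a smaller share of all regions than the 4.49% and 3.79% of the main fit. Without Tet2KO replicate 1 it called 70 in Tet2KO against WT, of which 23 were among the 30, beside 11.6% of all regions tested. Without Tet2KO replicate 2 it called 63, of which 20 were among the 30, beside 10.2% of all. In each fit that left a library out, the lone library of a genotype was assumed to vary like the other groups.

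Among the regions in the fit, values without overlap lay more often lower than higher in the knockouts. Of the 829 broad regions, 420 (50.7%) had both Tet2KO libraries below both WT libraries and 10 had them above, beside 20.4% and 2.92% of all regions tested. For DKO these counts were 330 (39.8%) and 32, beside 16.4% and 4.68%. All 4 knockout libraries lay below both WT libraries at 251 (30.3%) and above them at 3, beside 10.2% and 1.01%. These counts of lower regions each include 23 broad regions that entered the fit through both WT libraries alone. The filter set the direction of those 23. Regions that entered through knockout libraries alone were not removed either, so the counts are descriptions. DKO lay above Tet2KO without overlap at 192 (23.2%) and below it at 54, beside 11.4% and 4.81%. The Tet2KO and DKO comparisons share the WT libraries and are not independent of each other. Among the narrower constant regions tested, 26.6% lay lower without overlap in Tet2KO, 21.3% in DKO and 14.2% in all 4 knockout libraries. In 23.6% of all regions tested the replicates were equal within every genotype, which held for 43 of the 829 broad ones.

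Single regions show the patterns behind these counts. At chr15:76535818-76537112, 98.4% and 91.3% of bases were under 5hmC peaks in WT and 0% in all 4 knockout libraries. This region entered the fit only through its WT peaks, so its direction was set by the filter and no p is given. Its 5mC coverage was 80.5% to 95.1% over the 5 libraries. The same pattern held at chr8:108227556-108228854, with 56.4% and 56.1% in WT and 0% in every knockout library, which likewise entered through WT alone. In both regions a peak present in WT was missing in each knockout list, whose threshold decides what is 0%. The highest 5hmC score was 90.17 at the first region and 64.54 at the second. Both lay below the median scores of the WT lists, 93.65 and 92.8, and scores start at 50.

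Other regions had intermediate values in Tet2KO. At chr18:84331531-84332824 coverage was 68.5% and 71.3% in WT, 31.9% and 31.0% in Tet2KO and 0% in both DKO libraries (DKO against WT, limma, adjusted p = 0.00458). At chr3:88224129-88225348 it was 71.3% and 76.3% in WT, 29.4% and 40.7% in Tet2KO and 0% in both DKO libraries (limma, adjusted p = 0.0092). WT, Tet2KO and DKO libraries did not overlap at either region.

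A different pattern was low coverage in Tet2KO alone. At chr18:80388389-80390289 all bases were covered in both WT and both DKO libraries, and 64.9% and 68.5% in Tet2KO. It was lower in Tet2KO than in WT (limma, adjusted p = 0.00644) and higher in DKO than in Tet2KO (limma, adjusted p = 0.0174). The WT and DKO replicates all sat at the upper limit of the measure and showed no spread there. Neither call passed with the replicate number as a block (limma, adjusted p = 0.061 and 0.157). The regions chr5:136209132-136210974 and chr19:53425340-53426735 were likewise wholly covered in WT and DKO, with 90.8% and 93.7% in Tet2KO at the first and 74.6% and 65.5% at the second. At chr17:83684483-83686005, coverage was 33.6% and 42.7% in WT, 0% in both Tet2KO libraries and 72.8% and 77.2% in DKO (DKO against Tet2KO, limma, adjusted p = 0.0197). In the opposite sense, chr5:143731169-143732579 had no 5hmC peak in WT and Tet2KO and 57.2% and 54.2% in DKO, through which alone it entered the fit. Its highest 5hmC score was 81.32, below the median scores of the DKO lists, 97.075 and 96.81.

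Calls at these regions depended on the setting to different degrees. The DKO against WT call at chr18:84331531-84332824 passed in 10 of 12 alternatives, with limma adjusted p from 0.00276 to 0.134. That for Tet2KO at chr19:53425340-53426735 passed in 6 of 12, with limma adjusted p from 1.02e-04 to 0.568. Both kept their direction in all 12.

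The widest region, chr15:76002533-76012837, was not among the calls. Its 5hmC coverage was 57.3% and 47.2% for WT, 38.1% and 11.97% for Tet2KO and 39.6% and 27.3% for DKO. All 4 knockout libraries lay below both WT libraries, and the 2 Tet2KO libraries differed from each other by more than the WT and DKO replicates did. At chr10:79438247-79441917 coverage was 100% in both WT libraries, 82.4% and 73.8% in Tet2KO and 98.1% and 63.4% in DKO.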

How the data were processed

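The authors deposited 1 peak list per library, with a chromosome, start, end and score and no header. The score, per the file values, is at least 50 and looks like the MACS value of -10 times log10 of a p-value, where 50 would be a p of 1e-05. The submitters' processing notes name MACS 1.4.2, Bowtie 0.12.9, Cuffdiff 2.2.1, TopHat2 2.0.8 and CASAVA 1.4 together with build mm9, without saying which step each served. Read depth is not given in the sources used here. It can change how many peaks are called and how wide they are, and no interval could be computed for coverage.

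Lists of the 5 5mC libraries, with 119159 to 146192 autosomal peaks, were merged as described above. The members, comparison sets and tests were chosen with earlier results of these data known. Coverage is the percent of bases under peaks of a list. Regions named are the 10 widest, the 5 of highest mean percentile of score, the 5 clusters with most members, the 5 with most and the 5 widest with no 5hmC, the 5 of smallest limma p per contrast and 3 on either side of the threshold; not all are printed. limma 3.58.1 (R 4.3.3, trend in the prior variance) was fitted to all libraries of an assay. Replicates were numbered by the samples' titles, and the Tet2KO 5mC library has the number 2 there but the number 1 in the name of its deposited list; the title was followed. Same-numbered libraries did not deviate together over the members (correlations of -0.0327 to 0.0497), and the main fits have no block. Positions count from 1. No annotation or genome of mm9 was used here, so no genes are named and no sequences are given, and the planned gene lists were not examined. Python 3.11.15 with scipy 1.17.1 was used for the rest.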

Additional observations from a re-analysis of the deposited data

How the results depend on the processing

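The 5hmC coverage results kept their direction in all 16 alternatives each. These were a score minimum of 100, equal list lengths, widths of 1000, 1500 or 2000 bp, a replicate block and each library left out. Others replaced base coverage by the share of regions with any 5hmC peak or with one at the midpoint. Leaving out 1 member on chromosome 2 was chosen after seeing the data. With the replicate block, the permutation p was 0.5 for the excess of broad over narrower regions. It was 0.111 for the knockout difference and 0.222 for the slope. The block allows fewer arrangements, and 0.111 is the smallest p it can give for the knockout difference. By base coverage, the excess of broad over narrower regions ranged from 18.5 to 22.2 points and the knockout difference from -13.6 to -11.6. By the share with any 5hmC peak, which rises with width, they were 38.1 and -8.49 points, and by the midpoint 25.8 and -13.7. The slope, with 1 library left out, ranged from -7.13 to -3.69. The 5mC difference between DKO and WT changed sign at a minimum width of 1500 bp, to -0.138 points, and ranged from -1.81 to 1.99 when 1 library was left out. The percentile of score in place of coverage reversed it at chr2:76547728-76549373 (0.0816) and chr7:89919399-89920761 (0.0698). Broad regions numbered 2375, 455 and 119 at 1000, 1500 and 2000 bp, and 932 to 1061 with 1 list left out. Those with another within 10 kb made up 25.7%, 12.1% and 6.72% at these widths.

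Counts of limma calls at broad regions moved most. With no filter they were 19 for Tet2KO against WT, 11 for DKO against WT and 4 for DKO against Tet2KO, beside 2.38%, 2.32% and 0.72% of all regions tested. With the untransformed fraction, DKO against Tet2KO gave 3, beside 1.04%. A minimum 5hmC score of 100 gave 36 for DKO against WT and 20 for DKO against Tet2KO, of which 3 and 3 were calls without it, beside 5.01% and 2.81%. The replicate block, whose numbers share no stated animal or batch, gave 0, 2 and 0, beside 1.69%, 1.81% and 0.428%. Leaving out 1 library gave 0 to 70, 0 to 33 and 0 to 52, beside 0.484% to 11.6%, 0.48% to 6.48% and 0.802% to 9.33%. The cause of these changes was not tested. Where depth is unknown, a missing peak is not an absent mark.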

Other observations

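The single broad region at chr2:77765910-77767943 (2034 bp) stood apart from the rest by library. Its 5mC score was 3100 in the Tet2KO library and 112 to 132 in the 4 others, and its 5mC coverage was 100% against 17.5% to 32.7%. Its 5hmC coverage was 100% in Tet2KO replicate 2 and 0% in the 5 other 5hmC libraries. The number of this 5mC library differs between its title and the name of its list, so it is not matched here to a 5hmC replicate. It was singled out after its values were seen.

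Chromosome X, which the autosomal rule leaves out, had 528 constant 5mC regions, of which 19 reached 1200 bp, or 35.98 per 1000. The longest spanned 5279 bp. Between 1 and 3 of these 19 touched a 5hmC peak in any one library.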
